A study of Mus musculus with 24 samples.

Results

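The 39 genes described here encode proteins of the sarcomere, the repeating contractile unit of muscle, or partners of them. Of these, 18 belong to the thin filament, with the nebulin partner Klhl41 counted there, 8 to the thick filament and 3 to the M-band. Another 9 belong to the Z-disc or its desmin links, and titin spans the unit. All 39 were taken by gene symbol from the 56748 genes of the deposited table, without the myosin heavy chains. Bulk RNA sequencing (poly(A) RNA, reads counted per gene) covered 24 libraries of primary hindlimb muscle cells from mice younger than 5 days, in 8 groups of 3. The 4 myotube groups were mdx with aldosterone, mdx with vehicle, C57 with aldosterone and C57 with vehicle. Myotubes are the multinucleate cells that fused muscle precursors form. C57 cells came from C57BL/10 mice, and mdx cells from C57BL/10-Dmdmdx mice with a mutated Dmd gene, which encodes dystrophin, the membrane-associated protein that ties the contractile apparatus to the matrix. Aldosterone, a steroid hormone that binds the mineralocorticoid receptor, was given at 1 µM for 48 h, and the vehicle was 0.001% DMSO. All myotubes then spent 15 h in fresh medium without added hormone before lysis, so the RNA was taken after the hormone had been removed. The 4 fibroblast groups were named in the same way, but these cells had received only the medium conditioned by myotubes of their own genotype, for 24 h. Fibroblast genotype and the genotype behind the medium therefore cannot be told apart, and hormone carried over in the medium was not measured. Treatment medium held horse serum stripped of steroids with charcoal. The labels call the 3 libraries of a group biological replicates and do not say whether they came from separate animals, so p-values measure the spread between these cultures.

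In a sarcomere, thin filaments of actin, tropomyosin and troponin are anchored in the Z-disc through alpha-actinin, and myosin thick filaments are held together at the M-band by myomesins. Calcium binding to troponin C shifts troponin I, troponin T and tropomyosin on the actin filament and so permits contraction. Many of these proteins come in slow-fibre, fast-fibre and developmental forms encoded by separate genes, and muscle exchanges one form for another during development and with use.

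The 12 myotube libraries held 14133165 to 31144746 counts each, and the 12 fibroblast libraries 16964960 to 42698139. Dmd, the gene mutated in mdx mice, had 42.2, 45.5 and 70.1 CPM (counts divided by the library total and brought to a common total, with TMM scaling between libraries) in mdx aldosterone myotubes and 35.3, 40.8 and 54.8 CPM in mdx vehicle myotubes. C57 myotubes had 479, 488 and 427 CPM with aldosterone and 439, 351 and 370.5 CPM with vehicle, so no mdx library overlapped a C57 library. The 39 genes took between 4.64% and 6.58% of the counts of a myotube library, and between 0.180% and 0.246% of those of a fibroblast library.

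The highest levels per kilobase of transcript in myotubes belonged to thin filament and light chain genes. Skeletal alpha-actin, Acta1, averaged 6544 ± 1222 CPM per kb in mdx aldosterone, 6440.1 ± 581 in mdx vehicle, 8823 ± 285 in C57 aldosterone and 7626 ± 319.6 in C57 vehicle myotubes (SD, n = 3 libraries). Next in C57 vehicle myotubes came 2 fast light chain genes, the regulatory Mylpf at 3049 ± 79.5 CPM per kb and the essential Myl1 at 2256 ± 88.6 CPM per kb. They were followed by Tnnc1, the slow and cardiac calcium sensor troponin C, at 2072 ± 47.6 CPM per kb, and by cardiac alpha-actin Actc1, the form that also prevails in developing skeletal muscle, at 1564 ± 105 CPM per kb (SD, n = 3 libraries). The 3 M-band genes averaged between 90.8 and 114 CPM per kb in C57 vehicle myotubes. Titin, Ttn, and nebulin, Neb, whose giant proteins serve as molecular rulers of the filaments, had only 37.7 and 142 CPM per kb in C57 vehicle myotubes. The lowest values belonged to the calsarcin Myoz3 at 1.97 CPM per kb, the slow essential light chain Myl3 at 1.41 CPM per kb and the fast troponin C gene Tnnc2 at 0.231 CPM per kb.

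Tnnc2 had between 0 and 9 counts in every myotube library and did not pass the filter on low counts. Its span on chromosome 2 (mm39, 164619081 to 164621887, minus strand, in the deposited table) shares 1662 bases with Ube2c on the plus strand. In the GENCODE M21 annotation of GRCm38, 592 of the 800 exon bases of Tnnc2 (74.0%) lie in exons of Ube2c. The library kit does not mark strand, so reads of overlapping genes cannot be told apart, and the Tnnc2 value is uncertain. Another 7 of the 39 genes overlap a protein-coding gene, and these were Tnnt3, Tnnc1, Mybph, Myl2, Myl3, Myom1 and Tmod1.

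Of the 38 genes that passed the filter, 31 also passed it among the fibroblast libraries alone, and each of these was higher in myotubes than in fibroblasts of both genotypes (edgeR's quasi-likelihood test, adjusted p below 0.05). The other 7 (Lmod2, Mybpc2, Myl2, Myl3, Myoz1, Myoz2 and Myoz3) passed only through their counts in myotubes, which fixes their direction, and they are not counted here. In the same comparisons 36.7% of the 17864 genes tested were higher in C57 vehicle myotubes than in C57 vehicle-medium fibroblasts, and 35.5% were higher in mdx vehicle myotubes than in mdx vehicle-medium fibroblasts. With both directions counted, 70.5% of all genes were called in mdx cells and 74.7% in C57 cells. The differences of the 31 genes ran from 0.68 to 12.20 on the log2 scale in mdx cells and from 0.58 to 11.16 in C57 cells. The smallest differences belonged to the tropomyosins, rod proteins along the actin filament, whose genes also make non-muscle forms. Tpm3 had 91.0 CPM per kb in mdx vehicle myotubes and 82.6 CPM per kb in C57 vehicle myotubes, and fibroblasts held 63.6% and 68.6% of those levels. Tpm1 in fibroblasts stood at 42.1% of the myotube level in mdx cells and 47.8% in C57 cells, and Tpm2 at 14.0% in mdx cells and 13.4% in C57 cells. These 3 were the only ones of the 31 genes at 10% or more, and 26 in mdx cells and 25 in C57 cells were below 1%.

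With aldosterone, 5 of the 38 genes tested rose and 11 fell in myotubes once each treated culture was set against the vehicle culture of the same number, and none passed the test without that pairing. The genes that rose were slow and fast myosin-binding protein C (Mybpc1 and Mybpc2), tropomyosin Tpm3, the calsarcin Myoz2 and myotilin, Myot. The largest decreases were in Myoz3, the myomesin Myom3, myosin-binding protein H (Mybph), Neb and the embryonic light chain Myl4. Changes ranged from -0.54 to 0.52 on the log2 scale. The comparison asks what the hormone does to muscle cells, taken over both genotypes. Without the pairing the edgeR quasi-likelihood test called 0.216% of the 15763 genes tested and 0 of the 38. Of the 38, 7 had an unadjusted p below 0.05, and DESeq2 called 3 (Mybph, Myl4 and Myoz2), both given without the share of all genes. With the replicate number as a block it called 8.96% of all genes tested, 4.40% higher and 4.56% lower, and 16 of the 38 genes here. The median of the 38 was -0.09 on the log2 scale with the block, beside 0.01 over all genes tested. The pairing rests on the counts: in each genotype every aldosterone library deviated from its group mean together with the vehicle library of its own number. The margin was narrow for C57 aldosterone library 3, whose deviations correlated at 0.359 with vehicle library 3 and 0.350 with vehicle library 2.

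In the thick filament, 2 of 8 genes rose and 3 fell. Mybpc1 encodes slow myosin-binding protein C, which binds the thick filament and tunes cross-bridges. It had 1730.5, 2721 and 3832 CPM in mdx aldosterone myotubes, against 1197, 2134 and 2670.4 CPM in mdx vehicle myotubes. In C57 myotubes it had 3258, 3670.4 and 3166 CPM with aldosterone, against 2440.0, 2134 and 2149 CPM with vehicle. The C57 groups did not overlap, and the mdx groups did. Within all 6 cultures the aldosterone library was the higher, and the change was 0.52 ± 0.05 (edgeR with the block, adjusted p 1.81e-07; 0.51 ± 0.21 and adjusted p 0.626 without it). Its fast counterpart Mybpc2 had 34.1, 40.7 and 73.8 CPM in mdx aldosterone and 26.2, 33.4 and 47.0 CPM in mdx vehicle myotubes. C57 myotubes had 53.0, 47.0 and 35.6 CPM of Mybpc2 with aldosterone and 42.9, 29.7 and 28.8 CPM with vehicle. Both genotypes' groups overlapped, but the aldosterone library was again higher in 6 of 6 cultures, with a change of 0.43 ± 0.06 (edgeR with the block, adjusted p 2.81e-05).

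Mybph, a smaller relative of myosin-binding protein C, moved in the other direction. It had 573, 617 and 749.8 CPM in mdx aldosterone, against 761, 836 and 912 CPM in mdx vehicle myotubes, where no libraries overlapped. In C57 myotubes it had 813, 721 and 699 CPM with aldosterone, against 998, 931 and 880.0 CPM with vehicle, again without overlap. The change was -0.36 ± 0.04 (edgeR with the block, adjusted p 1.02e-06), lower in 6 of 6 cultures. Of the 5 myosin light chain genes, 2 fell. Myl4, the essential light chain of embryonic and atrial muscle, had 2329, 2252 and 2617 CPM in mdx aldosterone, against 2707, 2856 and 3308 CPM in mdx vehicle myotubes. In C57 myotubes Myl4 had 3086, 3138 and 2752 CPM with aldosterone, against 3417, 3718 and 3713 CPM with vehicle. No library overlapped in either genotype, and the change was -0.30 ± 0.05 (edgeR with the block, adjusted p 0.000175). Mylpf, the fast regulatory light chain, also fell, with a change of -0.25 ± 0.05 (edgeR with the block, adjusted p 0.00111), lower in 6 of 6 cultures. The fast essential chain Myl1 (-0.01 ± 0.05) and the slow chains Myl2 (-0.24 ± 0.13) and Myl3 (-0.02 ± 0.19) did not pass the test.

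**Figure D1:**
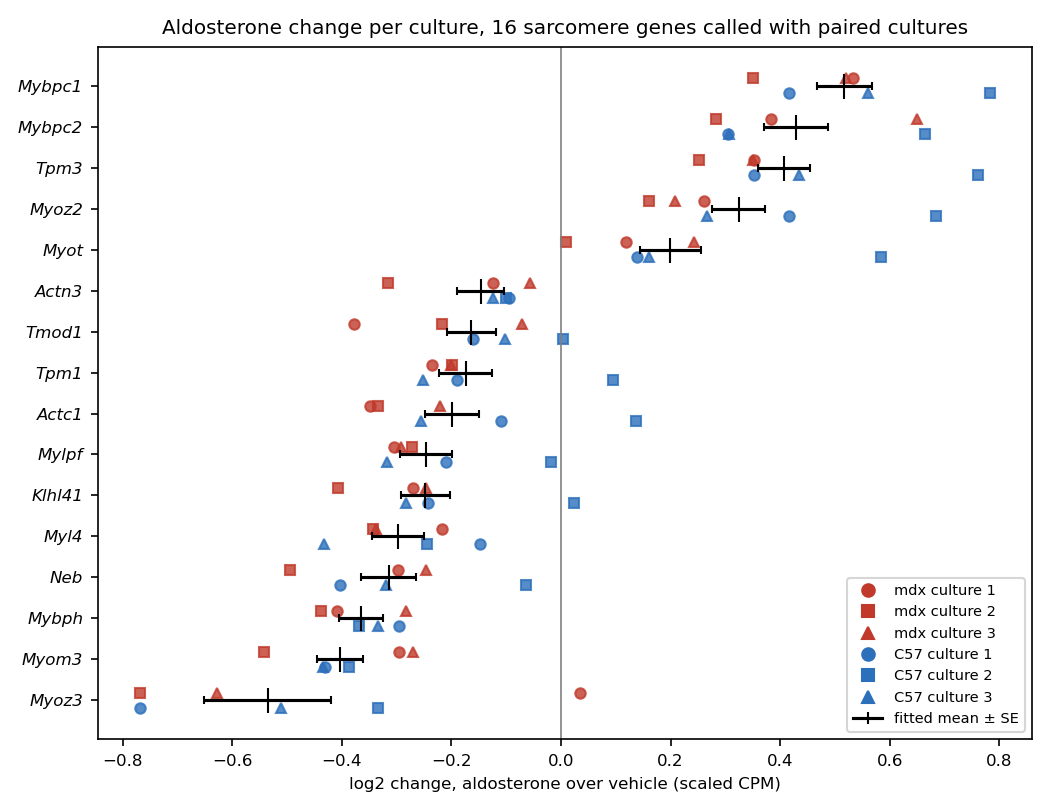
Log2 change of scaled CPM, aldosterone over vehicle, on the x axis for the 16 sarcomere genes called in the paired fit, one row per gene. Each point is 1 culture (red mdx, blue C57, shape by culture number) and the black mark is the fitted mean over both genotypes with its SE: Mybpc1 lies highest at 0.52 and Myoz3 lowest at -0.54.

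In the thin filament, with the nebulin partner Klhl41 counted there, 1 of the 17 genes tested rose and 5 fell. Tpm3, whose muscle product is the slow-fibre alpha-tropomyosin, had 689, 544 and 846 CPM in mdx aldosterone, against 539.7, 457 and 664 CPM in mdx vehicle myotubes. C57 myotubes had 653, 843 and 674 CPM with aldosterone, against 512, 497 and 498 CPM with vehicle. The C57 groups did not overlap, and the change over both genotypes was 0.41 ± 0.05 (edgeR with the block, adjusted p 5.24e-06), higher in 6 of 6 cultures. Counts per gene do not separate muscle from non-muscle products of Tpm3. Its relative Tpm1 fell by 0.17 on the log2 scale and Tpm2 had a change of -0.08 ± 0.04 (edgeR with the block, adjusted p 0.0238 for Tpm1 and 0.343 for Tpm2).

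Neb had 1564, 1902 and 3505 CPM in mdx aldosterone, against 1923, 2679 and 4158 CPM in mdx vehicle myotubes. C57 myotubes had 3534, 3009 and 2833 CPM of Neb with aldosterone, against 4677, 3144 and 3534 CPM with vehicle. Groups overlapped in both genotypes, and the aldosterone library was lower in 6 of 6 cultures, with a change of -0.31 ± 0.05 (edgeR with the block, adjusted p 0.000190). Klhl41, a chaperone-like partner of nebulin, fell by 0.25 on the log2 scale (SE 0.05, adjusted p 0.000758 by edgeR with the block), lower in 5 of 6 cultures. The actin gene Actc1 and the pointed-end cap Tmod1 fell by 0.20 and 0.16 (edgeR with the block, adjusted p 0.0112 and 0.0216), each lower in 5 of 6 cultures. Acta1 had a change of 0.10 ± 0.05 and did not pass (edgeR with the block, adjusted p 0.242). None of the 6 troponin genes tested passed, with changes between -0.13 for Tnnt1 and 0.08 for Tnnt2 on the log2 scale, and neither did the actin nucleators Lmod2 and Lmod3.

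**Figure D2:**
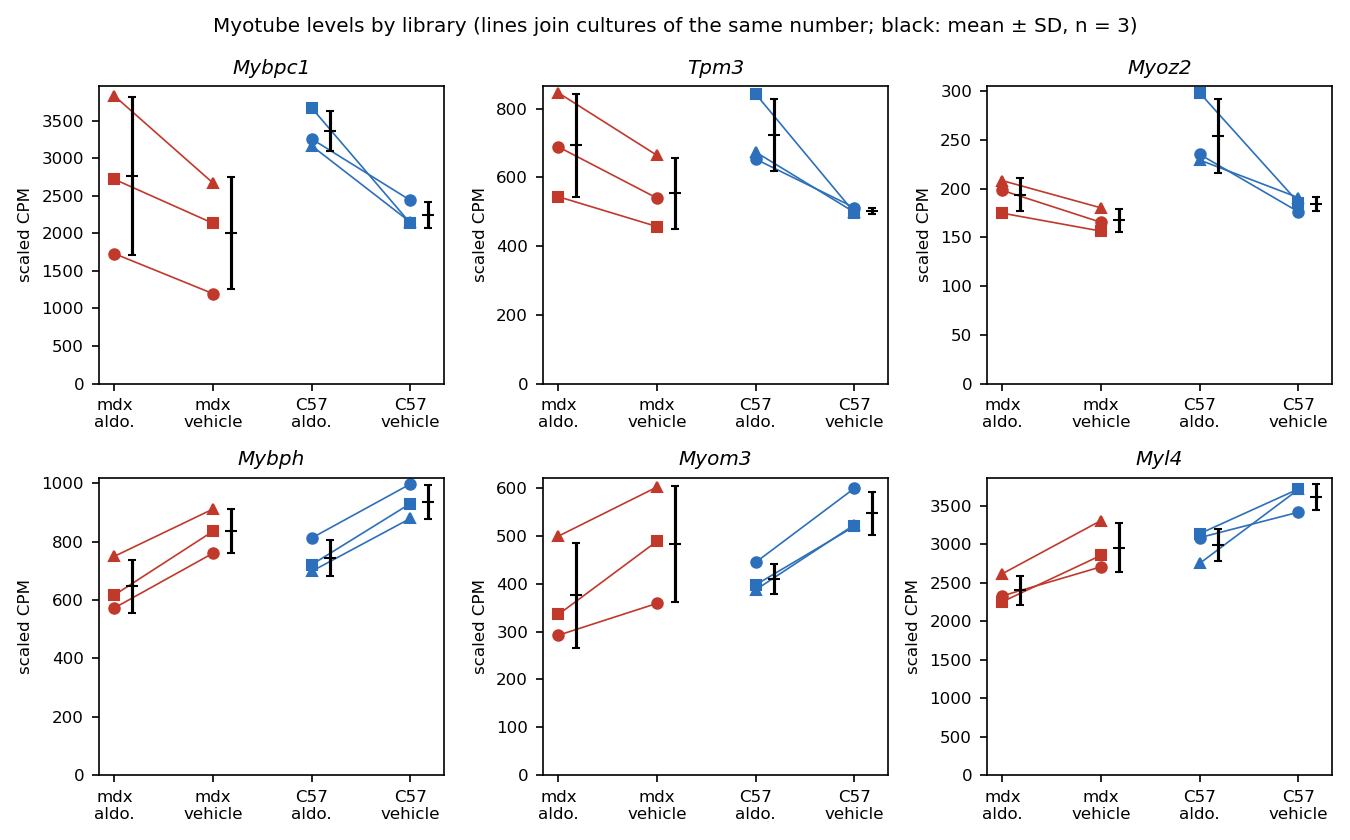
Scaled CPM (y axis, from 0) of 6 called genes in each myotube library, in mdx aldosterone, mdx vehicle, C57 aldosterone and C57 vehicle myotubes. Lines join cultures of the same number and black marks give the mean ± SD (n = 3): Mybpc1, Tpm3 and Myoz2 are higher, and Mybph, Myom3 and Myl4 lower, at the aldosterone end of every line.

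At the M-band, Myom3 alone of 3 genes fell, and at the Z-disc 2 of 9 genes rose and 2 fell. Myom3, a myomesin of intermediate fibre types, had 293, 336 and 500.0 CPM in mdx aldosterone, against 359, 489 and 603 CPM in mdx vehicle myotubes. The C57 libraries had 445, 398 and 388 CPM with aldosterone, against 600.3, 521 and 524 CPM with vehicle. The C57 groups did not overlap and the mdx groups did, and the change was -0.40 ± 0.04 (edgeR with the block, adjusted p 5.25e-07), lower in 6 of 6 cultures. Myom1 (-0.02 ± 0.04) and Myom2 (-0.02 ± 0.04) did not pass.

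The calsarcins, which bind alpha-actinin and the phosphatase calcineurin at the Z-disc, moved in different directions. Myoz2, the slow-fibre and cardiac form, had 198, 175 and 208 CPM in mdx aldosterone, against 165, 156 and 180.2 CPM in mdx vehicle myotubes. In C57 myotubes Myoz2 had 235, 298 and 229 CPM with aldosterone, against 176, 186 and 191 CPM with vehicle, where no libraries overlapped. It rose by 0.32 on the log2 scale (SE 0.05, adjusted p 9.89e-05 by edgeR with the block). Of the fast forms, Myoz3, at no more than 13.1 CPM in any myotube library, fell by 0.54 (SE 0.12, adjusted p 0.00384 by edgeR with the block), and Myoz1 had a change of -0.09 ± 0.05 that did not pass. Myot, an alpha-actinin and filamin binder, rose by 0.20 (adjusted p 0.0348 by edgeR with the block), higher in 6 of 6 cultures. The fast alpha-actinin Actn3 fell by 0.15 (adjusted p 0.0327 by edgeR with the block), lower in 6 of 6 cultures, whereas Actn2, which all fibres make, had a change of 0.05 ± 0.04. Tcap, Ldb3, Des and Ttn did not pass.

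In all 6 paired fits that each left out 1 culture, 10 of the 16 genes were called: Mybpc1, Mybpc2, Mybph, Myl4, Mylpf, Tpm3, Neb, Klhl41, Myom3 and Myoz2. Myoz3 was lost without mdx culture 3, Myot without any one of the mdx cultures, and Actc1, Tmod1, Actn3 and Tpm1 were called in 3, 2, 1 and 1 of the 6 fits. The number called ranged from 11 without mdx culture 2 or 3 to 24 without C57 culture 2. The share of all genes called in these fits is not given, so the range is not read as particular to sarcomere genes. Sums of 10 fibroblast markers were 1181, 4937 and 2384 CPM in mdx aldosterone and 1413, 4534 and 1642 CPM in mdx vehicle cultures. In C57 cultures they were 466, 765 and 879 CPM with aldosterone and 357, 1164 and 793 CPM with vehicle. The sum was higher in the aldosterone library in 4 of 6 cultures. In the paired fit 2 of the 9 fibroblast markers tested fell (Dcn and Thy1, each lower in 5 of 6 cultures), and 6 of 8 macrophage markers rose, although each of the 6 was higher in only 2 to 4 of 6 cultures. Macrophage marker sums were 2.76, 74.8 and 7.59 CPM in mdx aldosterone, against 2.37, 16.2 and 6.23 CPM in mdx vehicle cultures. They were 5.18, 161 and 93.9 CPM in C57 aldosterone, against 6.95, 193 and 111 CPM in C57 vehicle cultures, so the summed level was higher with aldosterone in every mdx culture and lower in every C57 culture. Endothelial marker sums were 28.3, 54.9 and 66.3 CPM in mdx aldosterone, against 29.0, 33.6 and 38.6 CPM in mdx vehicle cultures. They were 105, 233 and 147 CPM in C57 aldosterone, against 75.6, 172 and 132 CPM in C57 vehicle cultures, higher with aldosterone in 5 of 6 cultures, and 1 of 5 endothelial markers rose (Emcn, higher in 6 of 6 cultures). The myoblast marker Myf5 (1 of 5 in its list) and the adipocyte marker Fabp4 (the 1 tested of 4) also rose, each in 6 of 6 cultures, and the pericyte marker Rgs5 (1 of 6) fell, in 5 of 6 cultures. Among 7 myotube or muscle fibre markers 2 fell (Mymk and Pygm), and none of 7 markers of dividing cells or of 3 Schwann cell markers tested passed. The part of these cells in the aldosterone changes was not tested.

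Within each genotype the paired fit called 10 of the 38 genes in mdx myotubes, 3 higher and 7 lower, and 9 in C57 myotubes, 4 higher and 5 lower. Over all genes tested it called 2.33% in mdx myotubes, 1.01% higher and 1.32% lower, and 4.98% in C57 myotubes, 2.52% higher and 2.46% lower. Without mdx culture 2 or mdx culture 3 the mdx count was 3, and without C57 culture 2 the C57 count was 16, both given without the share of all genes in those fits. Without the block edgeR called 0 in each, beside 0 and 0.0127% of all genes in mdx and C57. In mdx 3 of the 38 had an unadjusted p below 0.05 and DESeq2 called 0, and in C57 4 had an unadjusted p below 0.05 and DESeq2 called 1. The share of all genes at these 2 rules is not given. Mybpc1, Mybpc2, Mybph, Myl4, Myom3, Neb and Tpm3 were called in both genotypes. Of these only Mybpc1 and Mybph were called in mdx in all 3 fits that each left out 1 mdx culture. In mdx Mybpc2 was lost without culture 3, Myom3 without culture 2, Neb, Myl4 and Klhl41 without culture 2 or 3, and Tpm3, Actc1 and Mylpf without any one culture. In C57 Myl4 was lost without culture 3, and Neb and Myoz3 without culture 1 or 3, while the other 6 were called in all 3 such fits. Actc1, Klhl41 and Mylpf were called in mdx alone, and Myoz2 and Myoz3 in C57 alone, but the difference between genotypes passed the test for none of the 38 genes, with or without the block. With the block 0.0444% of all genes passed that test, the 38 genes had differences between -0.24 and 0.15 on the log2 scale (mdx minus C57), and 2 of them had an unadjusted p below 0.05. Without the block 0% of all genes and 0 of the 38 passed, 0 of the 38 had an unadjusted p below 0.05, and DESeq2 called 0.

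Other sarcomere genes were also counted in the paired fit, where 8.96% of all genes passed. Of 9 sarcomeric myosin heavy chains, 1 rose, the slow chain Myh7 (0.43, adjusted p 6.63e-06), and 4 fell, with Myh4 (-0.66, adjusted p 3.52e-09) and the embryonic chain Myh3 (-0.46, adjusted p 7.72e-07) furthest (edgeR with the block). Among 32 other sarcomere and assembly genes 5 rose and 9 fell. The mechanically responsive ankyrin repeat gene Ankrd2 rose by 1.36 on the log2 scale (adjusted p 1.04e-07 by edgeR with the block). Ankrd2 had 8.47, 3.43 and 4.22 CPM in mdx aldosterone, against 5.32, 0.955 and 1.28 CPM in mdx vehicle myotubes, and 10.3, 15.2 and 16.1 CPM in C57 aldosterone, against 3.77, 5.00 and 4.84 CPM in C57 vehicle myotubes. Of 19 excitation-contraction genes 1 rose, the calcium pump Atp2a1 (0.64, adjusted p 5.74e-09), and 4 fell, among them the calcium-binding protein Casq1 (-0.41, adjusted p 3.80e-06, both by edgeR with the block). Of 16 myogenic regulator and fusion genes 2 rose and 2 fell. Without the block none of these passed by edgeR. Unadjusted p was below 0.05 for 3, 6, 2 and 1 genes of the 4 lists, and DESeq2 called 2, 2, 1 and 0, without the share of all genes beside them.

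Promoter sequences are printed for the 4 sarcomere genes with the smallest adjusted p in the paired fit, a pair that rose (Mybpc1 and Tpm3) and a pair that fell (Myom3 and Mybph). They come from RefSeq on GRCm38.p6 and run from 250 bases before to 50 bases after the start of transcription, 5′ to 3′ on the strand of the gene. Capitals mark E-boxes (CANNTG, the site class bound by MyoD and myogenin) and MCAT elements (CATTCC, read on both strands, bound by TEAD factors). Tpm3 has a pair of windows because the table gives it more than one start.

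Mybpc1, chr10:88605103-88605402, minus strand: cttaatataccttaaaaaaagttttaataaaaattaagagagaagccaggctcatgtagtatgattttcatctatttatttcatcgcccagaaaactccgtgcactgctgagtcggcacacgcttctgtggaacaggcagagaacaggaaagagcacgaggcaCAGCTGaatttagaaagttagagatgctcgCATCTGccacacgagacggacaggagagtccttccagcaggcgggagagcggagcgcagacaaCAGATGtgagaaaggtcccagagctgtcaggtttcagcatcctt

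Tpm3, chr3:90072401-90072700, plus strand: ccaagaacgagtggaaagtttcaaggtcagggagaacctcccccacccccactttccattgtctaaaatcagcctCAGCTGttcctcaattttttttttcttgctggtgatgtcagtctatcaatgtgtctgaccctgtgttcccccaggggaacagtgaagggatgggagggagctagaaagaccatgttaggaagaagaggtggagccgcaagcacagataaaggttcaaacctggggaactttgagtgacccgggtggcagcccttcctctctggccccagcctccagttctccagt

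Tpm3, chr3:90079271-90079570, plus strand: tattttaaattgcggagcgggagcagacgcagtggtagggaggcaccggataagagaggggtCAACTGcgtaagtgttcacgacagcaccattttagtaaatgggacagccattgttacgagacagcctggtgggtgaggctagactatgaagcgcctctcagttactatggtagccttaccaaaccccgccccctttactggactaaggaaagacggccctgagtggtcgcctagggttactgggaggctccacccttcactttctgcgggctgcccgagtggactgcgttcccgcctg

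Myom3, chr4:135759465-135759764, plus strand: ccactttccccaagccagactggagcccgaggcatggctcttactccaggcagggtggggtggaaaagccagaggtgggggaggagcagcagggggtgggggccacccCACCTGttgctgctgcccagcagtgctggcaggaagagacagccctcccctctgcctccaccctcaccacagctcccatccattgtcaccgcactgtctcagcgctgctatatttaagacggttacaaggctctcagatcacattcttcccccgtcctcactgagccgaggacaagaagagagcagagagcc

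Mybph, chr1:134193198-134193497, plus strand: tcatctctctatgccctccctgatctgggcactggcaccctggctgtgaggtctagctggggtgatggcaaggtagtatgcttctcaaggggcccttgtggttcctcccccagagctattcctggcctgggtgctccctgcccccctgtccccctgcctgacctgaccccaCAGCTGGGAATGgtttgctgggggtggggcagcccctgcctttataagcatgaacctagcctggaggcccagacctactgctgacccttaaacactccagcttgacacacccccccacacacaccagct

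Each of the 5 windows holds an E-box, the Mybpc1 window holds 3, and in Mybph an E-box and an MCAT element stand side by side. E-boxes are common: 72.3% of all 32851 RefSeq windows hold at least one, beside 30 of the 34 windows (88.2%) of the 29 sarcomere genes found among them. MCAT was in 29.4% of the 34 windows and 14.7% of all windows, the MEF2 site in 8.82% and 0.557%, and the CArG box, bound by serum response factor, in 17.6% and 1.63%. The palindrome of the half-sites AGAACA and TGTTCT with 3 bases between them, a full site of the steroid receptor class to which the mineralocorticoid receptor belongs, was in 0 of the 34 windows and in 3 of all windows. Both strands were read, and a match describes the letters of the window and not a bound site.

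Aldosterone and vehicle myotubes were then compared for the balance between isoforms, as the log2 ratio of counts per kilobase of one gene over its counterpart in the same library, which needs no scaling between libraries. None of 11 ratios passed an adjusted p of 0.05 (two-sided exact permutation test within genotype, 3 at an unadjusted p below 0.05, smallest possible p 0.005). The exact sign-flip test over the 6 paired cultures passed none either (smallest possible p 0.03125, smallest adjusted p 0.0859). After adjustment over 11 ratios, a lone ratio at the smallest possible p of either test would not pass. These tests therefore cannot show that an isoform balance stayed unchanged.

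Myl4 over Myl1, the embryonic over the adult light chain, was -1.59, -1.81 and -1.93 in mdx aldosterone, against -1.54, -1.50 and -1.62 in mdx vehicle myotubes (log2 ratios). It stood in C57 myotubes at -1.67, -2.07 and -1.89 with aldosterone, against -1.56, -1.55 and -1.49 with vehicle. The mdx groups overlapped and the C57 groups did not, and the difference was -0.28 (exact permutation p 0.01, adjusted p 0.055), lower in 6 of 6 cultures. Tnnt2 over Tnnt3, the developmental and cardiac over the fast troponin T, differed by 0.03 (exact permutation p 0.71, adjusted p 0.945).

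Among slow over fast ratios, Myoz2 over Myoz1 was higher in 6 of 6 treated cultures. It was 0.95, -0.00 and -0.52 in mdx aldosterone, against 0.58, -0.17 and -0.71 in mdx vehicle myotubes, where the 3 cultures lay far apart. C57 myotubes had values of -0.03, 0.09 and 0.02 with aldosterone, against -0.74, -0.45 and -0.49 with vehicle, without overlap. The mean difference was 0.41 (exact permutation p 0.165, adjusted p 0.363). Actn2 over Actn3, the general over the fast alpha-actinin, was close to even in all groups and differed by 0.19 (exact permutation p 0.015, adjusted p 0.055), higher in 6 of 6 cultures. Mybpc1 over Mybpc2 differed by only 0.10 (exact permutation p 0.48, adjusted p 0.88). Tnnt1 over Tnnt3, slow over fast troponin T, differed by -0.18 (exact permutation p 0.055, adjusted p 0.151). Tnni1 over Tnni2, Myl2 over Mylpf and Myl3 over Myl1 differed by -0.02, -0.01 and -0.03 (exact permutation adjusted p 0.945 each), and Tnnc1 over Tnnc2 rests on the few counts of Tnnc2.

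**Figure D3:**
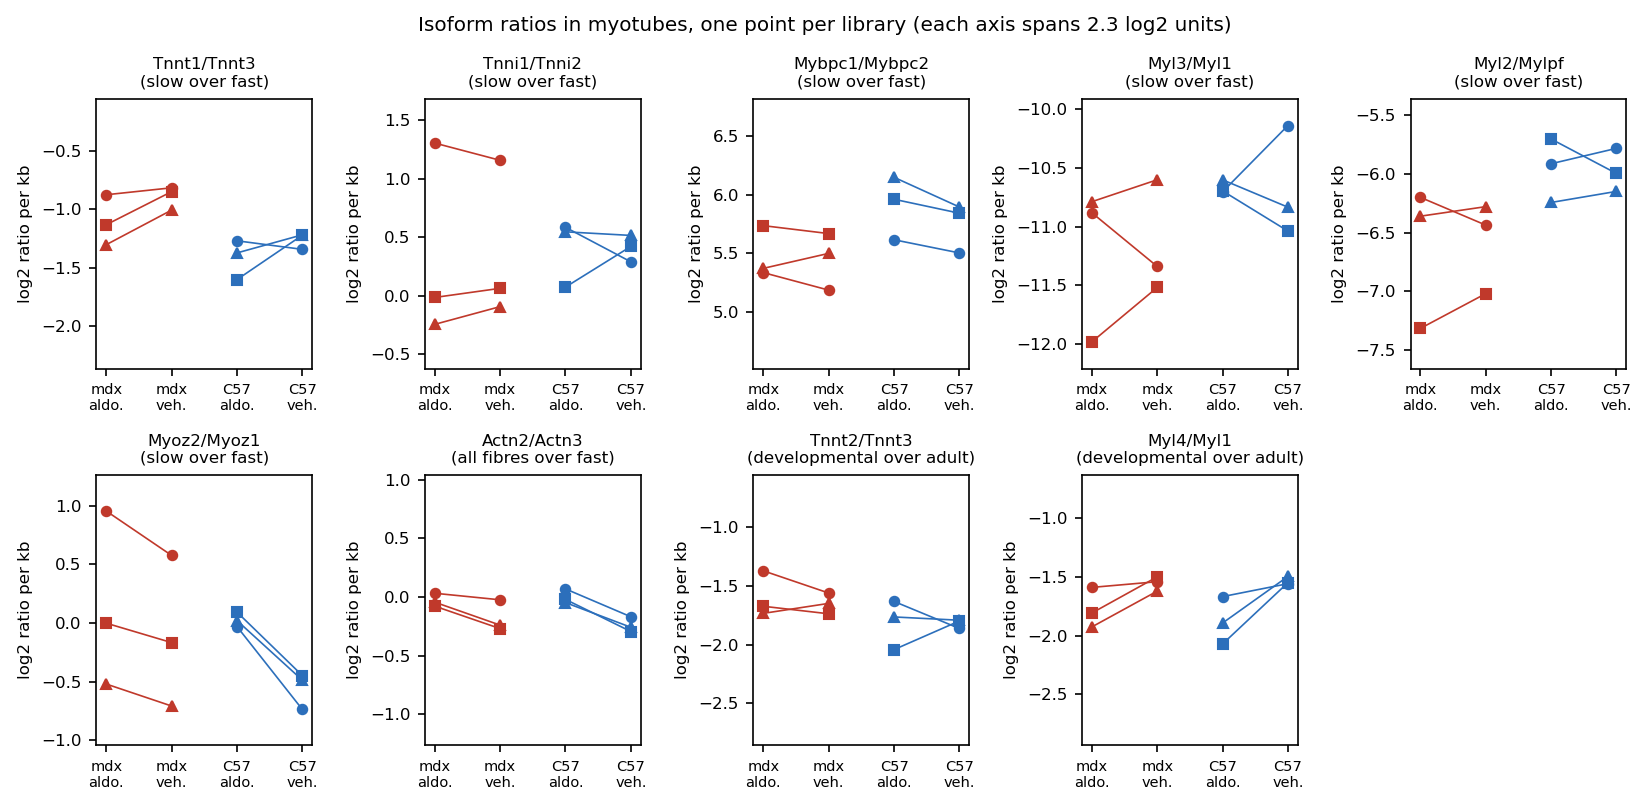
Log2 ratio of counts per kilobase (y axis, 2.3 log2 units in every panel) for 9 isoform pairs in mdx aldosterone, mdx vehicle, C57 aldosterone and C57 vehicle myotubes. Each point is 1 library, and lines join cultures of the same number (circle 1, square 2, triangle 3): Myl4/Myl1 is lower, and Myoz2/Myoz1 and Actn2/Actn3 higher, at the aldosterone end of every line, while the levels run from about even for Actn2/Actn3 to far below even for Myl3/Myl1.

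Slow and fast forms were balanced differently from one protein to the next. In C57 vehicle myotubes the slow form exceeded the fast one for myosin-binding protein C (log2 ratio 5.75 ± 0.21) and, per kilobase, slightly for troponin I (0.41 ± 0.11). The troponin I value depends on the deposited lengths (3600 bases for Tnni1, 1497 for Tnni2). In CPM the gap was wider, with 2343, 2461 and 2293 for Tnni1 against 797, 765 and 668 for Tnni2. The fast form exceeded the slow one for troponin T (-1.26 ± 0.07), the regulatory light chain (-5.98 ± 0.18) and the essential light chain (-10.67 ± 0.47, SD, n = 3 libraries each). Developmental forms were present beside the adult ones but below them per kilobase, at -1.82 ± 0.04 for troponin T and -1.53 ± 0.03 for the essential light chain. These levels rest on the deposited gene lengths, 7752 bases for Tnnt2, 1583 for Tnnt3, 4637 for Myl4 and 2074 for Myl1. In CPM Tnnt2 was the higher of its pair in C57 vehicle myotubes (2821 ± 107 against 2031 ± 129, SD, n = 3 libraries). Myl4 stayed the lower of its pair in CPM there, but by less than per kilobase (3417, 3718 and 3713 CPM against 4494, 4861 and 4679 CPM of Myl1). In fibroblasts the same ratios rested on counts as low as 0 per library and are not read further.

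Between genotypes, most sarcomere genes had lower values in mdx than in C57 myotubes, but none passed the test. With aldosterone 36 of the 38 genes had a negative log2 difference (median -0.38, all genes tested -0.02), and with vehicle 34 of 38 had one (median -0.27, all genes -0.000725). The edgeR quasi-likelihood test called 0 of the 38 with aldosterone, beside 0.311% of all genes, and 0 with vehicle, beside 0.362%. Unadjusted p was below 0.05 for 17 and 7 of them, and DESeq2 called 4 with aldosterone (Acta1, Tnni1, Myoz2 and Des) and 1 with vehicle (Tnni1). These genotypes are separate mouse lines, so differences between lines and the dystrophin mutation cannot be told apart. In RNA from whole cultures, fewer myotubes and less sarcomere RNA per myotube also cannot be told apart.

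Tnni1, the slow troponin I that embryonic muscle also makes, had the smallest p with vehicle. It had 1782, 1749.8 and 1904 CPM in mdx aldosterone, against 2239, 2400.3 and 2101 CPM in C57 aldosterone myotubes. With vehicle it had 1828, 1873 and 1993 CPM in mdx, against 2343, 2461 and 2293 CPM in C57 myotubes. No mdx library overlapped a C57 library, and the difference was -0.32 with aldosterone and -0.33 with vehicle (SE 0.09 each, edgeR adjusted p 0.168 and 0.163). Acta1 had 9102, 8839.5 and 12214 CPM in mdx aldosterone, against 13557, 13988 and 13114 CPM in C57 aldosterone myotubes. With vehicle Acta1 had 9581, 9197 and 10898 CPM in mdx, against 12136, 11828 and 11175 CPM in C57 myotubes. The groups again did not overlap, with differences of -0.44 and -0.26 (edgeR adjusted p 0.180 and 0.391). The largest difference belonged to the slow regulatory light chain Myl2, at -0.93 with aldosterone and -0.76 with vehicle (edgeR adjusted p 0.264 and 0.359). All 3 mdx libraries lay below all 3 C57 libraries for 10 of the 38 genes with aldosterone, beside 7.42% of all genes tested, and for 11 with vehicle, beside 8.32%. No gene of the 38 lay above in all 3, beside 10.6% of all genes with aldosterone and 10.8% with vehicle.

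The mdx cultures were not alike. With aldosterone, mdx cultures 1 and 2 lay below all C57 libraries for 36 and 34 of the 38 genes, while mdx culture 3 did so for 10 and lay above all of them for 7. Of all 15763 genes tested, these cultures lay below all C57 libraries for 30.6%, 35.3% and 23.3%, and culture 3 lay above for 28.3%. With vehicle the counts below were 37, 34 and 11, beside 30.1%, 35.6% and 26.2% of all genes, and culture 3 lay above for 10, beside 26.2% of all genes. The median difference from the C57 mean was -0.60, -0.50 and -0.05 on the log2 scale for the 3 mdx cultures with aldosterone, and -0.52, -0.34 and -0.03 with vehicle. Sums of 7 markers of myotubes or muscle fibres were also highest in culture 3 among the mdx cultures, with 4844, 4288 and 6451 CPM in mdx aldosterone, against 7381, 6567 and 6269 CPM in C57 aldosterone cultures. With vehicle they were 5032, 5058 and 6505 CPM in mdx, against 7564, 6272 and 6268 CPM in C57 cultures. Fibroblast marker sums, given above, were higher in all mdx than in all C57 cultures, though the lowest mdx sum (1181 CPM) lay next to the highest C57 sum (1164 CPM). Counts were found for 9 of the 10 markers in each group but C57 aldosterone, where there were 8, and Tcf21 was at 0 in all 4 groups. Pdgfra, a receptor that marks muscle fibroblasts, averaged 15.6 and 14.8 CPM in mdx aldosterone and vehicle cultures, against 9.21 and 10.4 CPM in C57 aldosterone and vehicle cultures. Endothelial marker sums, also given above, were lower in all mdx cultures (28.3 to 66.3 CPM) than in all C57 cultures (75.6 to 233 CPM). Sums of 5 myoblast markers, of which Des is itself one of the 39 genes, were 3354 to 4535 CPM in mdx and 4579 to 5186 CPM in C57 cultures, again without overlap. The part of these other cells in the genotype differences was not tested.

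**Figure D4:**
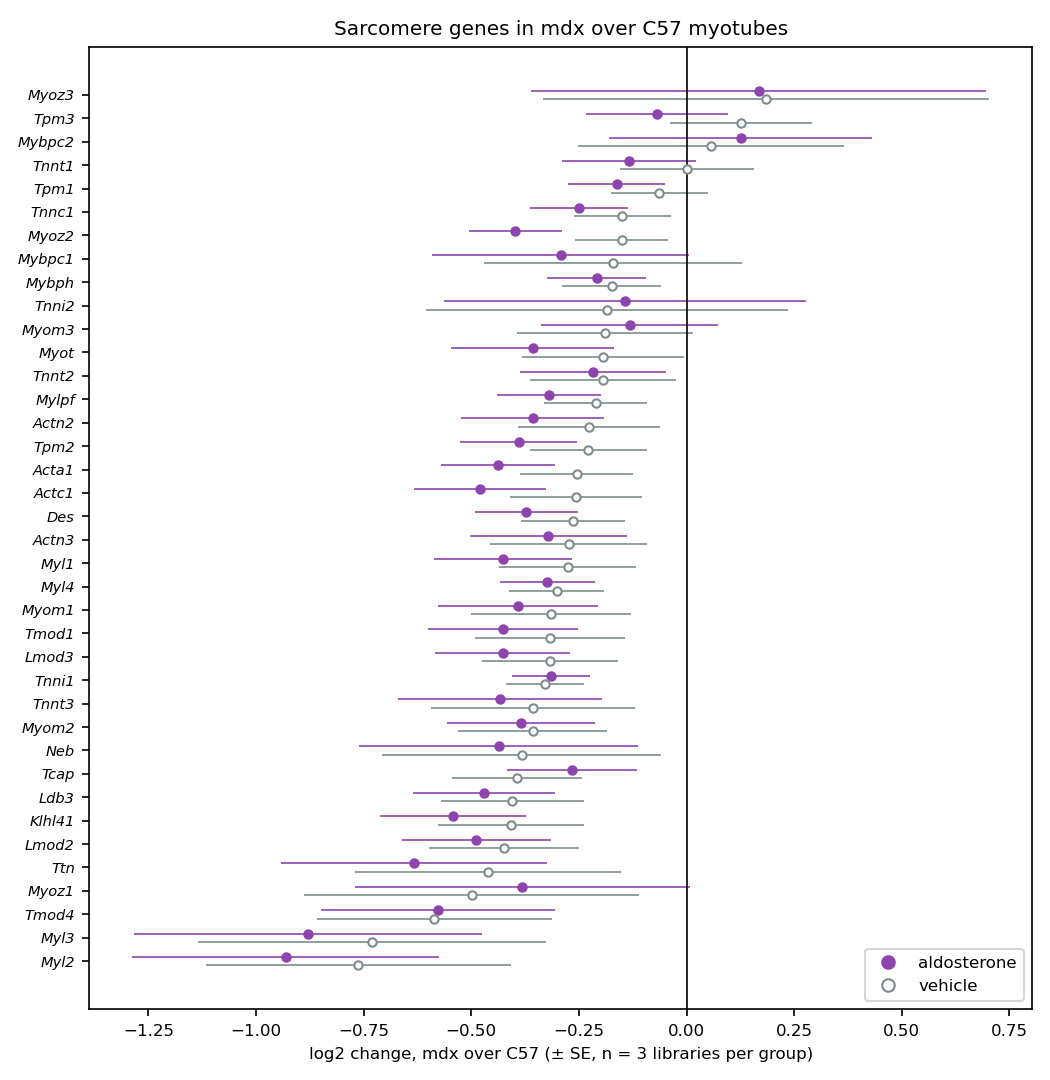
Log2 change, mdx over C57 myotubes (x axis), with its SE, for the 38 sarcomere genes tested, ordered by the value in vehicle. Filled points are aldosterone and open points vehicle (3 libraries per group): 36 of 38 filled and 34 of 38 open points lie below 0, from Myl2 at -0.93 and -0.76 to Myoz3 at 0.17 and 0.18.

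Isoform ratios of the cultures, averaged over both treatments, separated the genotypes without overlap for 3 of the 11 pairs. No such share was worked out for ratios of other genes. Single genes, given above, lay apart between genotypes for 7.42% to 10.8% in each direction, so the count of 3 is not read as particular to isoforms. Tnnt1 over Tnnt3 was -0.85, -0.99 and -1.16 in the mdx cultures, against -1.31, -1.41 and -1.30 in the C57 cultures. Tnnt2 over Tnnt3 was -1.46, -1.70 and -1.69 in mdx, against -1.75, -1.92 and -1.78 in C57 cultures. Myl2 over Mylpf was -6.32, -7.17 and -6.32 in mdx, against -5.85, -5.85 and -6.20 in C57 cultures. Both troponin T ratios, which share Tnnt3, were higher in the mdx cultures, and the light chain ratio was lower. Among the vehicle libraries alone all 3 pairs stayed apart, but among the aldosterone libraries alone all 3 overlapped. Tnnt1 over Tnnt3, for example, went down to -1.30 in mdx and up to -1.27 in C57 aldosterone libraries. With 3 cultures a side an exact permutation test cannot go below p = 0.10, so these are given as values.

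In fibroblasts, none of the 31 sarcomere genes that passed the filter was called for medium from aldosterone-treated myotubes. The edgeR quasi-likelihood test called 0 of the 31 over both genotypes, beside 0.0120% of the 16671 genes tested, with 2 at an unadjusted p below 0.05, and DESeq2 called 1 (Myom1). It called 0 in mdx and 0 in C57 fibroblasts, beside 0% of all genes in each, with 1 and 2 at an unadjusted p below 0.05, and DESeq2 called 0 in each. Here the unadjusted and DESeq2 counts stand without the share of all genes. The difference between genotypes passed for 0, beside 0% of all genes, with 1 at an unadjusted p below 0.05 and 0 by DESeq2.

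Sarcomere transcripts in fibroblasts varied mainly with the library. Over the 34 genes other than Tpm1, Tpm2, Tpm3, Myom1 and Ldb3, the median level was 0.386% of the mean myotube level in mdx aldosterone-medium replicate 2 and 0.286% in C57 vehicle-medium replicate 1, against 0.0223% to 0.140% in the other 10 libraries. The summed level of these 34 genes was 47.1, 230.3 and 46.3 CPM in mdx aldosterone-medium, against 31.6, 41.1 and 81.2 CPM in mdx vehicle-medium fibroblasts. It was 28.9, 98.4 and 85.8 CPM in C57 aldosterone-medium, against 188, 44.5 and 45.0 CPM in C57 vehicle-medium fibroblasts. The same 2 libraries had the highest sums of 7 markers of myotubes or muscle fibres, 27.3 and 27.7 CPM, against 3.64 to 13.8 CPM in the others. The part of muscle cells among the fibroblasts was not tested. The count of genes called by the aldosterone medium was 0 with and without these 2 libraries.

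**Figure D5:**
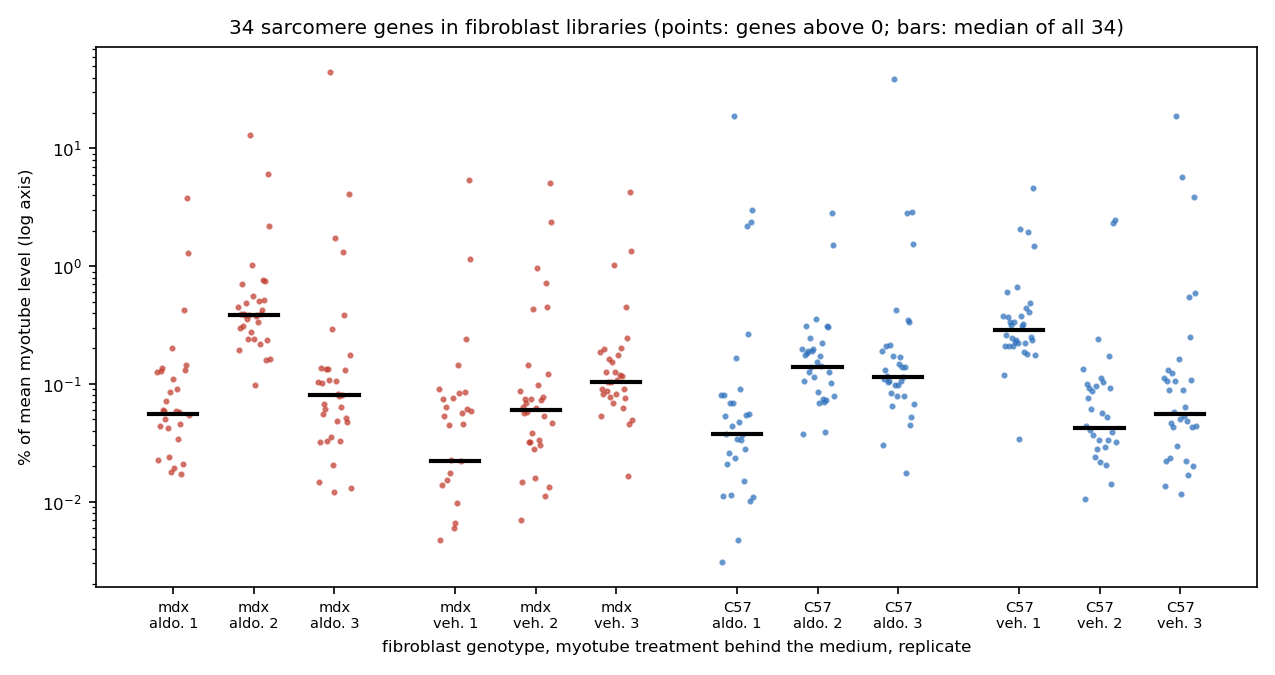
Level of 34 sarcomere genes in each fibroblast library as a percentage of the mean level over the 12 myotube libraries (log y axis), in mdx and C57 fibroblasts that received medium from aldosterone or vehicle myotubes. Points are genes above 0 and bars the median of all 34: mdx aldosterone-medium replicate 2 (0.386%) and C57 vehicle-medium replicate 1 (0.286%) stand above the other libraries, and the points above 10% are Tnnc2, whose myotube level is itself near 0.

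One sarcomere gene differed between mdx and C57 fibroblasts. Myom1, a myomesin of the M-band, had 7.98, 10.0 and 7.50 CPM in mdx, against 17.3, 19.8 and 22.2 CPM in C57 fibroblasts after aldosterone medium. After vehicle medium it had 7.85, 4.72 and 6.13 CPM in mdx, against 10.1, 14.9 and 12.9 CPM in C57 fibroblasts. The mdx libraries lay below the C57 libraries in both, with differences of -1.23 (SE 0.20, edgeR adjusted p 0.00987) and -1.02 (SE 0.21, edgeR adjusted p 0.0357). In these comparisons 1.23% and 1.10% of all genes were called, and 0.636% and 0.588% of all genes were lower in mdx. Without C57 aldosterone-medium replicate 3 or mdx aldosterone-medium replicate 3 the first count was 0, and without replicate 2 or 3 of mdx or of C57 vehicle-medium fibroblasts the second was 0. Myom1 shares 246 bases with Myl12a, which lies on the other strand and had 72117 counts over the fibroblast libraries beside 4138 of Myom1, and the part of those reads in the difference was not tested.

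Each of the 38 genes was matched with the most similar other one across the 12 myotube libraries, which share depth and culture. Pearson's r of log2 CPM with that gene was between 0.77 and 0.98, with a median of 0.94. Each r is the highest among many candidates, which by itself favours high values. The same matching was not done for other genes, so the values are not read as particular to sarcomere genes. Ttn was closest to Ldb3 (0.98), Acta1 to Des (0.98), Actn2 to Myom1 (0.97) and Actc1 to Klhl41 (0.97). The lowest values were those of 3 genes that rose with aldosterone: Tpm3 and Myoz2 were closest to each other at 0.77, and Mybpc2 was closest to Mybpc1 at 0.81. Mybph and Myom3, which both fell, were closest to each other at 0.93. The r was computed over aldosterone and vehicle libraries alike. The matches of these 5 genes therefore partly restate the aldosterone changes given above and are not separate evidence for them.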

How the data were processed

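Reads were counted per gene with featureCounts 1.5.0-p3 on mm39, per the submitters' processing notes, and the deposited table holds these raw counts for 24 libraries. The deposited FPKM values are scaled by gene length and library, by the authors, and served as an alternative for the ratios. They differ from counts per kilobase and library total by a constant factor within each library, from 0.884 to 1.14. Libraries were poly(A) selected and non-directional, per the labels' protocols, while the annotation release and the aligner used were not given in the sources used here.

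Counts were tested with edgeR 4.0.16 in R 4.3.3 (TMM scaling, filterByExpr, robust quasi-likelihood test), fitted over the 12 libraries of a cell type. Myotubes against fibroblasts were fitted over all 24 libraries, and the vehicle groups were compared within that fit. P-values were Benjamini-Hochberg adjusted over all genes tested, with a threshold of 0.05. DESeq2 1.42.0 was an alternative. Counts by unadjusted p or by DESeq2 are printed without the share of all genes at the same rule. They are not read as results particular to the sarcomere genes. The procedure was checked on simulated counts. CPM per kb used the deposited gene length. Isoform ratios added 0.5 counts to each gene and were tested by exact permutation within genotype (400 arrangements), adjusted over the 11 ratios, of which 1 is not reported here.

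The fit named in the design has no replicate block. In myotubes, the deviations of the aldosterone and vehicle libraries of one number correlated at 0.359 to 0.704 in all 6 pairs (libraries of different number -0.607 to 0.350), so the numbers were taken to pair the cultures. The fit with that block is printed beside the unpaired one. Whether the numbers mark a shared culture is not stated in the labels, and the word culture stands here for a replicate number within a genotype.

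The 39 genes and all lists were chosen with earlier results of these data known. Genes given with values are those of the 11 isoform ratios, up to 12 further called genes per comparison by smallest adjusted p, up to 4 of smallest p where none was called, and up to 4 called genes of each other list. Further values of called members were added after they were seen. Other settings tried were DESeq2 size factors, library totals, scaling without the sarcomere genes, no count filter, fits of only the groups compared and leaving out each library.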

Additional observations from a re-analysis of the deposited data

How the results depend on the processing

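Between aldosterone and vehicle myotubes over both genotypes, 0 of 38 genes passed without the replicate block, 1 with library totals, 2 with no count filter, 3 with DESeq2 and 16 with the replicate block. Leaving out 1 library without the block gave 0 throughout, and leaving out 1 culture with the block gave 11 to 24 (24 without C57 culture 2, 13 without C57 culture 1, 12 without C57 culture 3 or mdx culture 1, and 11 without mdx culture 2 or 3). In mdx myotubes the block gave 10 and the fits without 1 culture 3 to 8, and in C57 myotubes DESeq2 gave 1, the block 9 and the fits without 1 culture 6 to 16. Between mdx and C57 myotubes DESeq2 gave 4 with aldosterone and 1 with vehicle, against 0 in the edgeR fit. Between mdx and C57 fibroblasts the count was 1 in each medium. In aldosterone medium it was 2 with no count filter and 2 with DESeq2, and 0 to 1 with a library left out. In vehicle medium it was 0 when only the groups compared were fitted, and 0 to 1 with a library left out. Aldosterone against vehicle medium over both genotypes gave 1 with DESeq2 and 0 otherwise. In fibroblasts same-numbered libraries correlated at -0.0176 to 0.299. Of 6 pairs 4 exceeded 0.1, among them all 3 in mdx, and 5 correlated best with their own number, but as 2 C57 pairs did not exceed 0.1 the numbers were not taken to pair them, and the replicate block gave 0 calls. Isoform ratios past the threshold numbered 0 to 2 with a library left out, the 2 without mdx aldosterone replicate 1. Shares of all genes called in the fits with a culture or library left out are not given, and the causes of these shifts were not tested. Of 35 results on single genes, 34 kept their direction under every alternative run, and Neb in mdx myotubes ranged from -0.75 to 0.00412 on the log2 scale with a library left out, the last without mdx vehicle replicate 3. Leaving out both fibroblast libraries with high sarcomere levels, chosen after seeing the data, left each fibroblast count as it was. Fits of only the groups compared were not run for results that use all groups.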
